A study of Mus musculus with 4 samples.

Results

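The nuclear factor I family comprises 4 transcription factor genes, Nfia, Nfib, Nfic and Nfix, and all 4 were found by symbol among 21887 annotated protein-coding genes. They were described by the open chromatin peaks lying in each gene or within 200 kb of either end, in 4 ATAC-seq libraries of wild-type (wt) mouse lung at stage E15.5 of embryonic development. ATAC-seq uses the Tn5 transposase to insert adapters into accessible DNA, and each library was deposited as a list of peaks. Together the 4 loci held 370, 508, 494 and 447 peaks in replicates 1 to 4, of 134503, 186199, 211678 and 192842 on the assembled chromosomes. There was 1 group and no contrast between conditions, and fold means enrichment over background at a peak's summit, as the authors' peak caller gave it.

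Nuclear factor I proteins bind DNA as dimers at a palindrome built from the motif TTGGC. They act in the maturation of many organs, often at the step from dividing progenitor to differentiated cell. Nfib is best known in the lung: mice that lack it die at birth with immature lungs. Nfia is known for its part in glial development, Nfic for tooth root formation, and Nfix for brain and fetal muscle development.

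The libraries were not alike, and this bears on every value below. According to the labels, all lungs were snap-frozen, and 60000 nuclei were tagmented. However, peaks of replicate 1 had the word Frais (French, fresh) in their names, while Frozen stood in the names of replicates 2, 3 and 4. Replicate 1 had the fewest peaks, a median fold of 8.99 against 3.73 to 3.90, and peaks covering 78.6 Mb against 141 to 162 Mb. Values are therefore given for each library, and fold is compared only as a percentile rank within its own library. Read totals were not analysed here, and nothing in the labels said whether replicates came from separate embryos, so each SD is only the spread between these samples. Of marker genes of lung epithelium and mesenchyme, 5 of 5 and 5 of 5 had a peak summit within 1 kb of an annotated end in all 4 libraries. So did 3 of 3 of endothelium, 1 of 3 of blood, 2 of 3 of heart, 0 of 3 of liver and 0 of 3 of neural tissue. Over all protein-coding genes the share was 60.5%, so counts out of 3 say little. For markers with such a summit in any library, the median of their mean percentiles of fold was 94.4 in epithelium and 94.0 in mesenchyme. It was 71.9 in endothelium and 42.7 in heart, with Pecam1 of endothelium at 27.2 and Tbx5 of mesenchyme at 61.4. The blood marker with a summit in all 4 was Spi1, at a mean percentile of 90.8, while Klf1 had one in 2 libraries and Ptprc in none. Of the liver genes Afp had one in 1 library and Alb and Hnf4a in none, and of the neural genes Olig2 and Pax6 had one in 3 and Neurod1 in 2. The part of these other cell types in the values below was not tested.

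In coordinates of mm10, Nfia (gene ID 18027) lies on chromosome 4 from 97578066 to 98118876, a span of 541 kb. Nfib (18028) lies on chromosome 4 from 82290173 to 82506751, or 217 kb. Nfix (18032) lies on chromosome 8 from 84704712 to 84801238, or 96.5 kb. Nfic (18029) is the shortest at 35.7 kb, on chromosome 10 from 81396191 to 81431919. Nfia and Nfib had no other protein-coding gene within 200 kb, whereas 28 lay that close to Nfic and 20 to Nfix.

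RefSeq's promoter windows on GRCm38.p6, the assembly of mm10, gave starts for 3 of the 4 genes: 1 for Nfia, 1 for Nfic and 4 for Nfix. A start is called touched where a peak overlapped its window of 300 bases, 250 of them before the start. The start itself need not lie under the peak. The 250 bases before 4 of these starts are shown because their peaks differed: the Nfic start and the Nfix start at 84773410 were touched by a peak in all 4 libraries, the Nfix start at 84780082 in none, and the Nfia start in 1. The Nfix starts at 84775828, touched in all 4, and 84772875, touched in 3, are described without their letters. Capitals mark matches to the GC box GGGCGG on either strand.
Nfic, chr10:81427174-81427423, minus strand: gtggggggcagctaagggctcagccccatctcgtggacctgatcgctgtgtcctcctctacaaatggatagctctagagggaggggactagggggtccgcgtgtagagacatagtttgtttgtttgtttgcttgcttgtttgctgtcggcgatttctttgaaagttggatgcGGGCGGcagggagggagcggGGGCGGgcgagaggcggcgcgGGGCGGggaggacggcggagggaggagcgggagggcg
Nfix, chr8:84773411-84773660, minus strand: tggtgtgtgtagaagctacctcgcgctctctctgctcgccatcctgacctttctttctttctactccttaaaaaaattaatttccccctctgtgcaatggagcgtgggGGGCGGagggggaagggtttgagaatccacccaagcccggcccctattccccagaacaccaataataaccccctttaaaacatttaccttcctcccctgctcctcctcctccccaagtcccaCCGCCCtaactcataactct
Nfix, chr8:84780083-84780332, minus strand: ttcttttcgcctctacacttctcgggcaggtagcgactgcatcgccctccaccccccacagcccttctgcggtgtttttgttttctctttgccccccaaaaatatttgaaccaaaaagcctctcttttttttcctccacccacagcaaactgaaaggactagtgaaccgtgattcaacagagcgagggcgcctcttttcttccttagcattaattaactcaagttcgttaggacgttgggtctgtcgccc
Nfia, chr4:97581693-97581942, plus strand: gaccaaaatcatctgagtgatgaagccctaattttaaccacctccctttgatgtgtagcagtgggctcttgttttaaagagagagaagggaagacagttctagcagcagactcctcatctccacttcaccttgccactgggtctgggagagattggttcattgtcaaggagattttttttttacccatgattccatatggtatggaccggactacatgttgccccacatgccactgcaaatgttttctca

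The Nfic window held 3 GC boxes and 19 CpG dinucleotides, and the Nfix window at 84773410 held 2 and 7. The untouched Nfix window held 0 GC boxes and 11 CpG, and the Nfia window 0 and 1. The other Nfix window touched in all libraries, at 84775828, held 0 and 4, and the one touched in 3 held 0 and 1, so GC boxes did not separate touched from untouched windows. A GC box was present in 32.7% of the 32851 windows of this length. The full nuclear factor I palindrome, which is TTGGC and its reverse complement GCCAA spaced by 5 bases, was in none of the 6 windows of the family and in 0.0365% of all windows. The motif TTGGC alone, on either strand, was in 2 of the 6 (both of Nfix) and in 41.5% of all, and the palindrome contains it. A match is a description of the letters and not a bound site.

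Annotated gene ends were examined first. A peak summit lay within 1 kb of an annotated end in all 4 libraries for 3 of the 4 genes, Nfib, Nfic and Nfix, and 60.5% of all protein-coding genes met the same rule, so the count for the family was close to the background. It was also 3 without replicate 1 (64.2% of all genes), and 3 when any peak touching the window counted (66.7%). With a window of 0.5 kb, 0 of the 4 members and 50.1% of all genes met the rule in all 4 libraries. Exons and introns could not be separated with the annotation used here, and every peak within a gene but over 1 kb from its ends is called an inside peak.

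Nfib was open at its high-coordinate end in every library. The summit lay 0.204, 0.296, 0.987 and 0.276 kb from that end in replicates 1 to 4, at fold enrichments of 76.1, 33.1, 20.1 and 23.0. Within each library this was the 94.0th, 97.1st, 95.6th and 96.0th percentile of fold, a mean of 95.7 ± 1.27 (SD, n = 4). Each rank is among all peaks of its library, and no value for the end peaks of all genes is given beside it. The low-coordinate end had a summit within 1 kb in replicate 4 only, at the 8.73rd percentile. The peaks of all 4 libraries at the open end formed a region of 4.90 kb, from 82503956 to 82508851, which also overlapped the long non-coding RNA gene Gm11266.

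At Nfic the summits met the rule at the low-coordinate end, 0.763 to 0.823 kb from it, outside the gene in replicates 1, 2 and 3 and inside it in replicate 4. They were at the 49.0th, 86.97th, 91.2nd and 73.9th percentile of fold (75.2 ± 19.01, SD, n = 4; 84.0 without replicate 1). Nfic is transcribed from the minus strand, so this is its annotated 3′ end, and the region there, from 81392125 to 81398857, also overlapped the neighbouring gene Smim24. Replicate 1 was the lowest. At the high-coordinate end no library had a summit within 1 kb, the nearest being 1.13 to 4.67 kb away, although a peak touched that window in every library. Counting any peak that touched either window, the percentile was 94.8, 97.6, 98.9 and 97.9 in replicates 1 to 4.

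Nfix met the rule through different ends in different libraries. Its low-coordinate end, which is also the 3′ end on the minus strand and overlaps the end of the blood-lineage factor gene Lyl1, had a summit within 1 kb in replicates 1, 3 and 4. Its high-coordinate end had one in replicates 1, 2 and 3. The stronger of these reached the 82.0th, 89.4th, 94.2nd and 92.2nd percentile, with replicate 1 the lowest. At Nfia no summit lay within 1 kb of an end in replicates 1, 2 and 3, and replicate 4 had 1, at the high-coordinate end and the 45.7th percentile. Its listed start, 3.88 kb inside the low-coordinate end, was touched by a peak in replicate 4 alone, at the 8.73rd percentile of fold. Only 1 start was listed for Nfia and none for Nfib, so further starts inside these genes could not be placed. Whether Nfia was open at a further start was not tested.

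Listed starts inside the genes gave a second view. The Nfic start, 4.75 kb inside the high-coordinate end, was touched in all 4 libraries by a peak at the 70.2nd, 97.6th, 98.9th and 97.9th percentile. The nearest summit lay 2.60, 5.88, 9.42 and 5.925 kb from that start, so these percentiles belong to the touching peak and not to the start. In replicates 2 to 4 peaks covered 96.4% to 98.8% of the inside of Nfic, so most positions there were touched. Of the 4 Nfix starts, those at 84773410 and 84775828 were touched in all 4 libraries by the same peak, at the 94.6th, 95.5th, 96.4th and 96.1st percentile. That peak's summit was 0.679 to 0.725 kb from the start at 84773410. The Nfix start at 84772875 was touched in 3 libraries (not in replicate 1), and the start at 84780082 in none, with its nearest summit 0.762 to 1.22 kb away. Over the windows of all 32851 listed starts, 48.6% were touched in every library.

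The plot of peaks along the 4 loci shows 2 kinds of locus. Nfia and Nfib carried many narrow, separate peaks, while peaks at Nfic and Nfix were wide and often joined, above all in replicates 2, 3 and 4.

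**Figure D1:**
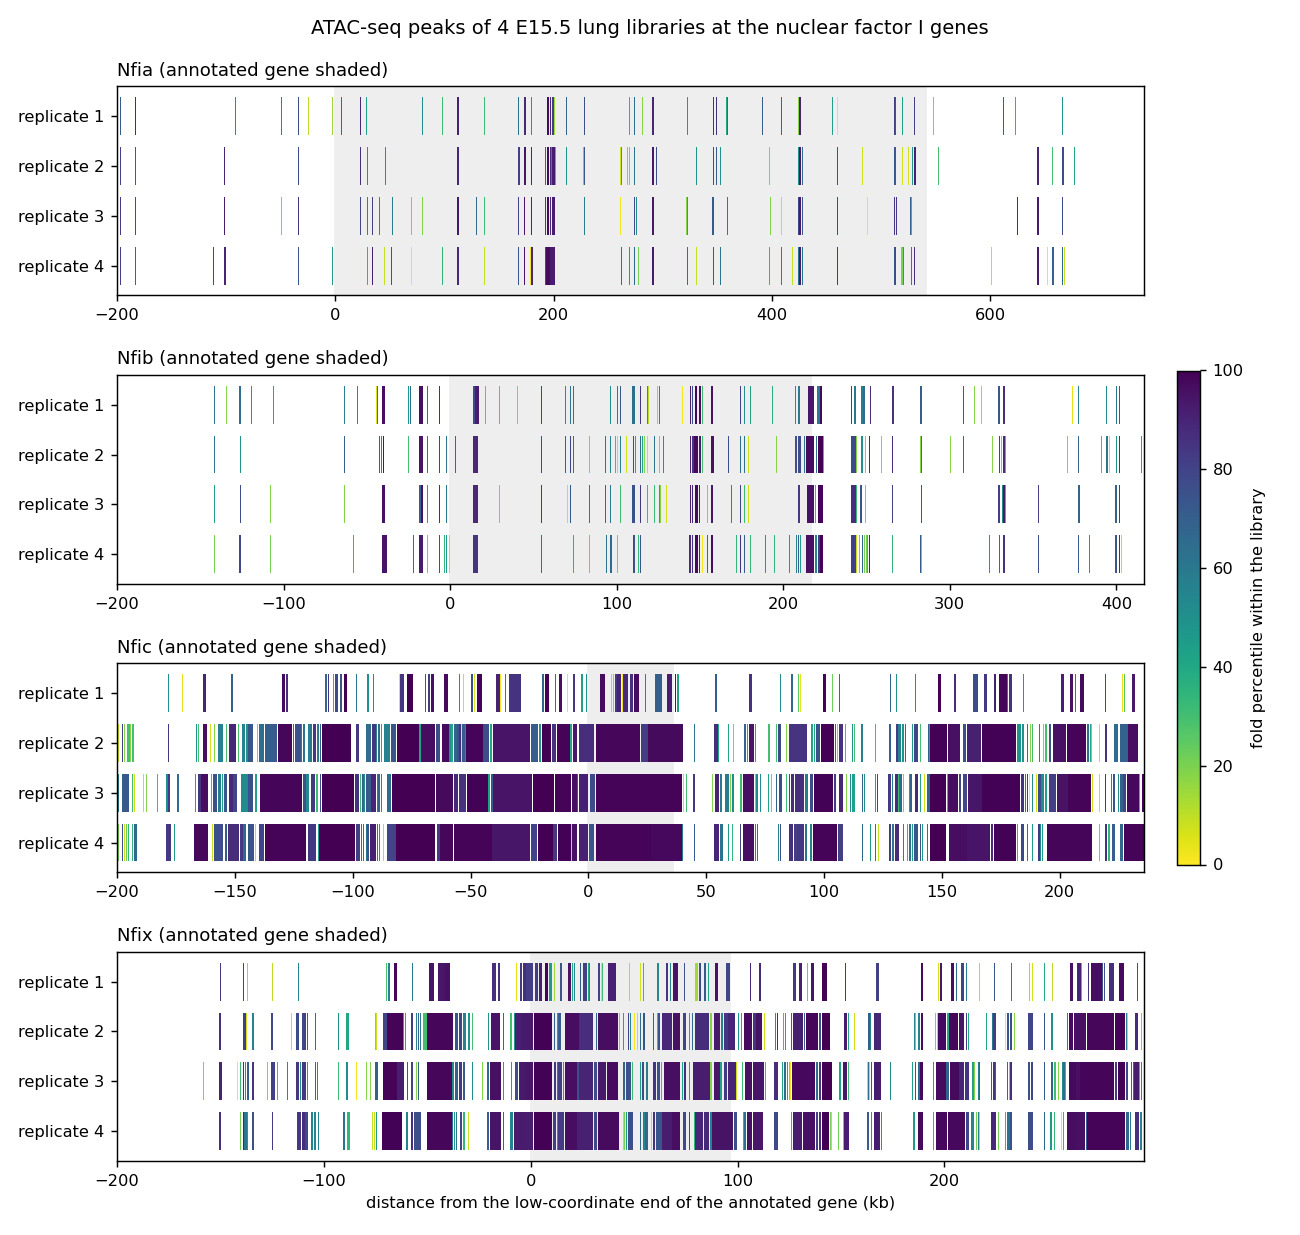
Peaks of each library (rows) along the 4 genes, by distance in kb from the low-coordinate end of the annotated gene (shaded), with 200 kb on either side; color gives the percentile of fold within the library. Nfia and Nfib show separate narrow peaks in every library, and Nfic and Nfix show wide blocks in replicates 2 to 4. In replicate 1 the inside of Nfic holds 12 separate peaks in place of 1 or 2. Inside Nfix, replicate 1 has a similar number of peaks (35 against 30 to 37) with a lower median width. In the flanks of both genes replicate 1 has fewer peaks.

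Inside Nfia there were 71, 78, 65 and 80 peaks in replicates 1 to 4, and inside Nfib 41, 56, 46 and 38. Their median width was 344 to 477 bp in Nfia and 329 to 466 bp in Nfib. Replicate 1 lay within the range of the others for both counts. With a −log10 q of at least 5 the mean number of peaks per library in gene and flanks was 54 at Nfia and 50.5 at Nfib, against 100 and 96.8 over all listed peaks. Nfix held 35, 37, 32 and 30 inside peaks, with median widths of 584, 655, 1137 and 1305 bp. Nfic held 12 inside peaks in replicate 1 but 2, 2 and 1 in the others, where a single peak was up to 36.5 kb wide and thus longer than the annotated gene. A count of peaks therefore did not measure how much of Nfic was open, and the share of bases covered was taken as well, a measure chosen after these values had been seen.

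Peaks covered 7.64%, 8.52%, 7.22% and 8.42% of the inside of Nfia in replicates 1 to 4, and 11.6%, 14.6%, 11.95% and 11.1% of Nfib. Nfib was higher than Nfia in each library, by a mean of 1.54-fold. Replicate 1 lay within the range of the others for both genes. Covered DNA was far more extensive at the other two: 45.7%, 96.4%, 98.8% and 97.6% at Nfic, and 33.6%, 71.1%, 74.7% and 81.1% at Nfix. Replicate 1 was the lowest at both, and without it the means were 97.6% ± 1.204 and 75.6% ± 5.09 (SD, n = 3). Even in replicate 1, Nfic and Nfix were above every value of Nfia and Nfib. The Nfic value rested on wide peaks: without peaks wider than 10 kb its mean over 4 libraries was 17.0% in place of 84.6%.

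**Figure D2:**
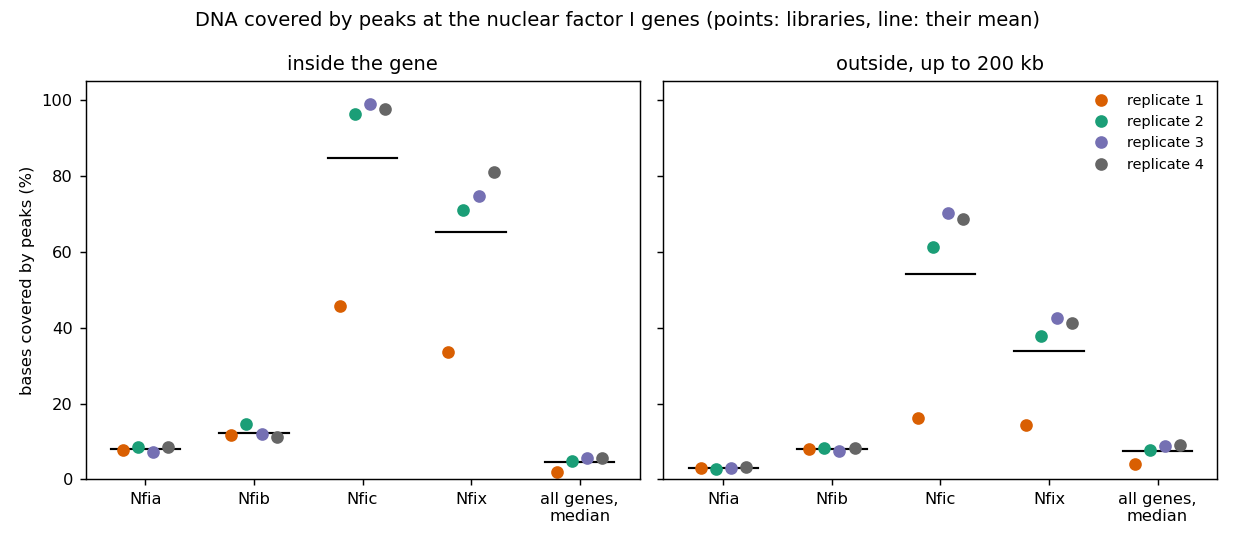
Percentage of bases covered by peaks inside each gene (left) and in the 200 kb on either side (right), with 1 point per library, a line at their mean, and the median over all protein-coding genes for comparison. Inside Nfic replicates 2 to 4 sit at 96.4% to 98.8% and replicate 1 at 45.7%, while every Nfia and Nfib point lies under 15%.

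All 6 pairs of genes were compared within libraries. For covered share, Nfic exceeded Nfia 10.2-fold, Nfib 6.60-fold and Nfix 1.31-fold, and Nfix exceeded Nfia 7.77-fold and Nfib 5.04-fold, each in 4 of 4 libraries. The two-sided exact permutation test over 4 libraries cannot go below p = 0.125, which all 6 pairs reached (adjusted p = 0.125), so none could pass a threshold of 0.05. For peak summits per 100 kb of gene and flanks, Nfia was the lowest in every library, at 0.68 times Nfib (exact permutation p = 0.125, adjusted p = 0.15), and Nfic and Nfix did not differ beyond their spread, with a mean log2 ratio of 0.09 ± 0.13 (SD, n = 4; exact permutation p = 0.25, adjusted p = 0.25) that was -0.034 with a reach of 100 kb. The order of covered share over all listed peaks was thus Nfic, Nfix, Nfib and Nfia. Nfic and Nfix changed places without peaks wider than 10 kb, with means of 17.0% and 62.4%.

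Covered share was also ranked among all genes of the same library, and these ranks still differed between libraries. Among 15553 protein-coding genes with at least 5 kb of inside DNA, Nfic stood at the 99.7th ± 0.06 percentile of covered share and Nfix at the 98.1st ± 0.78 (SD, n = 4), with replicate 1 giving 99.6 and 99.1. Nfib stood at 73.4 ± 12.05 and Nfia at 64.6 ± 12.3, and both were highest in replicate 1, at 90.1 and 82.2, against 64.1 to 74.5 and 54.7 to 63.0 in the others. Nfia and Nfib thus ranked higher in the library with the shortest list although their own covered share there lay within the range of the other libraries. The median over all genes was 1.93% in replicate 1 and 4.74% to 5.76% in the others. By peak number, Nfix ranked at 88.4 ± 7.81, Nfib at 76.6 ± 11.1 and Nfia at 65.3 ± 11.6, while Nfic was at 98.6 in replicate 1 and at 30.5 to 42.5 in the others.

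**Figure D3:**
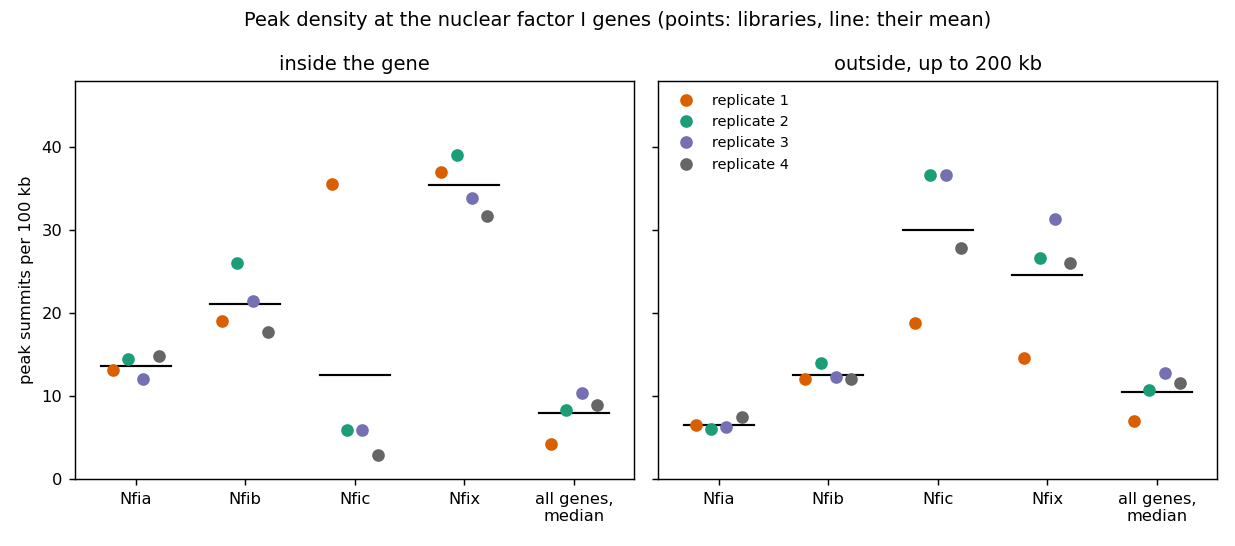
Peak summits per 100 kb inside each gene (left) and in its flanks (right), with 1 point per library, a line at their mean, and the median over all protein-coding genes. Inside the gene Nfia lies between 12.1 and 14.8, Nfib between 17.7 and 26.1 and Nfix between 31.7 and 39.1, whereas Nfic is at 35.6 in replicate 1 and at 2.96 to 5.93 in the others.

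DNA outside the genes separated the pairs in the same way. Outside Nfia there were 26, 24, 25 and 30 peaks in replicates 1 to 4, covering 2.83% to 3.32% of the flanks, the 27.9th ± 5.58 percentile (SD, n = 4) of all genes. Outside Nfib there were 48, 56, 49 and 48, covering 7.55% to 8.33%, at the 56.4th ± 15.7 percentile. More of the Nfib peaks lay above its high-coordinate end (30 to 39) than below the low end (16 to 19). With no other protein-coding gene in reach, all of these peaks were intergenic or in non-coding genes.

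Outside Nfic there were 75, 146, 146 and 111 peaks, which covered 16.2% of the flanks in replicate 1 and 61.3% to 70.2% in the others (99.5th ± 0.51 percentile, SD, n = 4). Most lay at or in other genes: 23 to 37 at annotated ends of other protein-coding genes, 31 to 85 elsewhere inside them, and 14 to 27 in neither. Outside Nfix there were 58, 106, 125 and 104 peaks, covering 14.4% and then 37.7% to 42.4% (96.7th ± 0.75 percentile), of which 9 to 21 lay in no other protein-coding gene. Without peaks at the ends of other genes, the mean percentile of outside peak density was 91.3 at Nfic and 86.1 at Nfix, against 95.8 and 89.4 with them.

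Inside and outside densities were compared within each library as a log2 ratio of peaks per 100 kb. Nfia had more peaks inside than outside, with ratios of 1.01, 1.26, 0.94 and 0.98 (mean 1.05 ± 0.15, SD, n = 4), and Nfib likewise, at 0.66, 0.89, 0.80 and 0.55 (0.73 ± 0.15). For each of these the exact permutation p was 0.125 (adjusted p = 0.167), the smallest the design allows. Nfix was at 1.35, 0.56, 0.11 and 0.28, positive in 4 of 4 libraries (exact permutation p = 0.125, adjusted p = 0.167). Nfic was at 0.92 in replicate 1 and at -2.63, -2.63 and -3.23 in the others, so the direction depended on the library (exact permutation p = 0.25). By covered bases the inside exceeded the outside at all 4 genes in 4 of 4 libraries, with mean log2 ratios of 1.40 for Nfia, 0.61 for Nfib, 0.79 for Nfic and 0.98 for Nfix (exact permutation p = 0.125 and adjusted p = 0.125 for each).

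Peaks that overlapped or touched, in any of the libraries, were joined into regions, and a region with a peak of every library is called shared. Of 307572 regions in the genome, 21.5% were shared. The share was 24.6% at Nfia (41 of 167), 25.1% at Nfib (43 of 171), 26.9% at Nfic (29 of 108) and 28.9% at Nfix (43 of 149), counting gene and flanks. Inside the genes, 28 regions were shared in Nfia, 20 in Nfib, 13 in Nfix and 1 in Nfic, the last being 37.2 kb wide. When replicate 1 was left out, 57 regions were shared at Nfic and 72 at Nfix. Leaving out each library in turn gave 46 to 51 at Nfia and 44 to 50 at Nfib. No share over the genome is given for these counts. Nfix had the highest inside share of the 3 genes with more than 1 inside region, with 13 of 26 regions shared, against 28 of 120 in Nfia and 20 of 80 in Nfib. Shared inside regions of Nfix were also wider, with a median of 3.33 kb against 1.24 kb in Nfia and 1.08 kb in Nfib. The part of width in this share was not tested.

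Regions not shared by all libraries also differed by locus. At Nfia, 16 regions came from replicate 1 alone and 9 from replicates 2, 3 and 4 but not 1. At Nfib these numbers were 19 and 7. At Nfic they were 1 and 28, and at Nfix 0 and 29. Over the genome, 8.85% of regions came from replicate 1 alone and 8.24% from the other three without it. As shares of a locus' regions, those from replicates 2, 3 and 4 without 1 made up 25.9% at Nfic and 19.5% at Nfix but 5.39% at Nfia and 4.09% at Nfib. The part that tissue handling, depth or peak width played in this was not tested.

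Shared regions at the Nfic and Nfix loci also ranked higher in fold, each region taking the highest percentile of its peaks in a library. A mean percentile of fold of at least 90 was reached by 14 of 29 shared regions at Nfic (48.3%) and 17 of 43 at Nfix (39.5%), against 23.3% of all shared regions. Of these 14 and 17 regions, 13 at Nfic and 11 at Nfix lay outside the gene. At Nfia and Nfib the numbers were 8 of 41 (19.5%) and 8 of 43 (18.6%), which was near that background. The median shared region was 5.73 kb wide at Nfic and 2.76 kb at Nfix, against 0.985 kb at Nfia, 1.11 kb at Nfib and 1.45 kb over all shared regions. A region joined from more peaks had more values from which the highest was taken. The part of width in these percentiles was not tested.

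The strongest shared region at Nfia lay inside the gene, on chromosome 4 from 97771334 to 97774395, with its summit 195 kb from the low-coordinate end. Its fold was 118, 34.2, 27.0 and 29.9 in replicates 1 to 4, which was the 97.1st ± 0.17 percentile (SD, n = 4), the smallest spread of its 5 strongest regions. It overlapped the long non-coding RNA gene Gm38709, as did the second strongest, from 97750595 to 97753157, at 92.9 ± 3.08. The third, from 98002829 to 98004739, was at 92.8 ± 1.54 and overlapped no other annotated gene. The fourth, from 97868088 to 97869936, was at 92.5 ± 2.12 and reached into the non-coding gene Gm19417. The fifth, at 92.3 ± 2.16, lay outside, 103 kb above the high-coordinate end, within the pseudogene Gm12691. Replicate 1 was the lowest library for the first 4 of these and the highest for the fifth. Whether any of the inside regions holds a further start of Nfia could not be told from the starts listed.

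At Nfib the strongest shared region lay outside, from 82510687 to 82513909, 6.46 kb above the high-coordinate end and inside Gm11266. Its fold was 152, 64.9, 51.3 and 60.1, the 98.9th ± 0.55 percentile. The second, inside the gene from 82436524 to 82439119, had folds of 184, 34.8, 29.8 and 32.4 (97.8 ± 0.66), and here replicate 1 ranked highest. The open gene end described above was the third. The fourth, from 82446859 to 82448386, was at 95.4 ± 0.57, and the fifth lay 39.7 kb below the low-coordinate end, from 82249396 to 82252251, at 95.2 ± 1.25 and overlapping no annotated gene. The summit of the second lay 68.7 kb from the high-coordinate end and that of the fourth 59.3 kb. In 4 equal parts of the gene from low to high coordinate, inside summits numbered 2 to 8, 8 to 16, 15 to 20 and 10 to 15 over the 4 libraries, with the most in the third of these parts in every library.

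The 5 strongest shared regions in the Nfic locus all lay outside Nfic and overlapped other genes. The strongest, from 81309593 to 81331250 over Pip5k1c, Cactin and Tbxa2r, reached the 99.96th percentile. The others overlapped 8 annotated genes with Gipc3, Fzr1 and Dohh among them (99.8 ± 0.12), Tjp3 and Pip5k1c (99.7 ± 0.13), Gna11 (99.6 ± 0.03), and Tle5 and Tle2 (99.3 ± 0.36). The inside region of Nfic ranked eighth in its locus, with folds of 122, 45.8, 45.7 and 54.5 (98.3 ± 0.89).

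At Nfix the strongest shared region lay 45.8 kb above the gene over Calr, which encodes the chaperone calreticulin, at the 99.8th ± 0.11 percentile. The second was inside Nfix, from 84706361 to 84715258, with its summit 7.88 kb from the low-coordinate end. Its fold was 204, 67.6, 53.8 and 75.3, the 99.3rd ± 0.23 percentile, and this was the highest rank of any region inside a gene of the family. The next 3 lay outside, over Cacna1a (98.8 ± 0.45), the Rnaseh2a to Hook2 interval with Junb (98.5 ± 1.03), and Ier2 (97.7 ± 1.16). Another 4 inside regions of Nfix had a mean percentile above 90. The region at the listed starts, from 84765441 to 84776846, was at 95.7 ± 0.81.

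**Figure D4:**
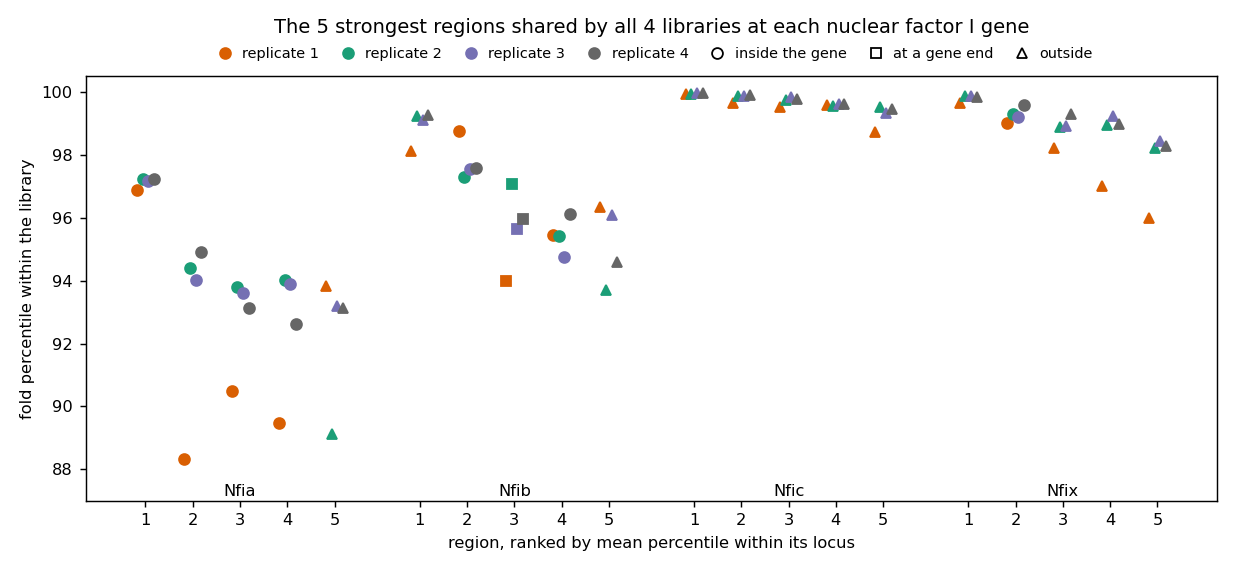
Percentile of fold within each library for the 5 strongest shared regions of each locus, ranked by mean percentile, with 1 point per library and the marker giving the position of the region. Replicate 1 is the lowest point for 4 of 5 regions at Nfia, and all 5 Nfic regions are triangles, which lie outside the gene.

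Genes within 200 kb of a member were examined by the same rule for annotated ends. Near Nfic 17 of 28 (60.7%) and near Nfix 13 of 20 (65%) had a summit at an end in all 4 libraries, which was close to the 60.5% of all genes. The strongest near Nfic were Pip5k1c and Cactin, which share a peak at the 99.96th percentile, and Fzr1, an activator of the anaphase-promoting complex, at 99.8 ± 0.12. The strongest near Nfix were Calr at 99.8 ± 0.11, the calcium channel gene Cacna1a at 98.8 ± 0.45, and Gcdh, an enzyme of lysine breakdown, at 97.4 ± 0.26.

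Genes with the most similar pattern were taken over 12 values: the within-library percentiles, in each of 4 libraries, of inside density, outside density and strongest end peak. A missing end peak was set to 0, as for Nfia in replicates 1, 2 and 3. Density here is by peak number, which did not measure how much of Nfic was open, and covered share was not among the values. Nfia was most like Stard13, Rbm12b1 and Clic5 (Euclidean distances of 17.7 to 18.3), Nfib most like Bpgm, Plagl1 and Rassf2 (16.4 to 21.4), and Nfix most like Cerk and Sox13 (13.05 and 15.2). The nearest genes to Nfic, Ppp1r36 and Skap1, were 40.6 and 43.2 away. The closest pair of members, Nfib and Nfix, was 76.05 apart, and Nfix ranked 2863rd among the genes nearest to Nfib. Nfix ranked 1075th from Nfic, at a distance of 87.5, and the member nearest to Nfia, Nfib, ranked 7649th.

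Genes linked to the family were examined at their annotated ends, from a list drawn from general knowledge. Of 22 such genes, 17 had a summit there in all 4 libraries, against 60.5% of all protein-coding genes. Among products and regulators of lung maturation this held for 8 of 10. The surfactant protein gene Sftpc was at the 97.0th ± 0.99 percentile and Abca3, a lipid transporter of type II cells, at 96.0 ± 1.73, while Sftpd had no end peak in any library. It held for 3 of 4 partner factors, 3 of 4 genes of growth and chromatin and 3 of 4 glial genes. The strongest was Ezh2, a histone methyltransferase, at 98.7 ± 0.32. Peaks at gene ends need not be at promoters and may belong to neighbouring genes.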

How the data were processed

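Per the submitters' processing notes, the genome build was mm10 and the tools were MACS3 3.0.1, Bowtie2 2.5.2, Trim Galore, deepTools, SAMtools 1.18, FastQC 0.12.1 and bedtools 2.31.0, with no role or parameters. Whether duplicates were removed or reads shifted for Tn5 is not given in the sources used here. The authors deposited 1 narrow peak list per library. It gives a fold (ratio over background) and a −log10 q value at each summit, per the narrow peak format that the deposited files follow, and both are the authors' values. The deposited summit offset, in bp, placed each peak.

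Per library, 1245 to 1814 peaks outside the 19 autosomes and the sex chromosomes were left out. Gene positions came from RefSeq's GRCm38.p6. Computation used Python 3.11.15, numpy and pandas. Inside counts, the presence of an end peak and the covered share inside genes were checked on simulated lists of narrow, separate peaks. Wide peaks, outside counts and the merging of regions were not part of that check. Densities are per 100 kb. The share of bases covered was added after seeing the data. Comparisons used two-sided exact sign permutation over libraries with Benjamini-Hochberg adjustment over 4 genes or 6 pairs. Alternatives were a −log10 q of at least 5, equal list lengths, each library left out, other windows (0.5 and 2.5 kb), reach (100 kb), placement, width and merging rules, and regions in at least 3 libraries.

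Named genes were the 4 members, their 5 strongest shared regions, the 3 strongest open neighbours, the 3 most similar genes (for Nfic and Nfix the third is not reported here), and linked genes with the 3 strongest or no end peaks. The members and lists were chosen with earlier results of these data known.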

Additional observations from a re-analysis of the deposited data

Results flagged for a closer look

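Each measure of each gene, and each of the 5 strongest regions, was checked for 1 library far from the other 3, using the gap to the nearest library as a share of the range and Dixon's 95% critical value. Of 70 groups of 4 libraries 16 were beyond it, and in 13 of these the library was replicate 1. Chance gives about 1 in 20 groups, but the measures overlap and share libraries, so the groups are not independent.

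Replicate 1 stood apart at Nfic with 12 inside peaks against 1 or 2, with 45.7% of the inside covered, with 16.2% of the flanks covered, with the flanks at the 98.7th percentile against 99.8 in each other library, and with a longest gap between peaks of 4.82 kb against 0.572 to 0.704 kb. It stood apart at Nfix with 14.4% of the flanks covered and with the strongest peak touching a gene-end window at the 82.0th percentile. It stood apart at Nfia with the flanks at the 36.2nd percentile of covered share against 24.5 to 25.5.

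Among the strongest regions, replicate 1 was the low library for the second region of Nfia (88.3rd percentile), the first of Nfib (98.1), the second of Nfic (99.6) and, at Nfix, the region over Junb (97.0) and that over Ier2 (96.0). Replicate 2 stood apart with a longest gap of 43.6 kb inside Nfia against 28.7 to 31.3 kb, with 56 outside peaks at Nfib against 48 or 49, and with the fifth region of Nfia at the 89.1st percentile against 93.1 to 93.8.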

How the results depend on the processing

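Of 324 recomputed values 296 were counted as unchanged. Percentiles and covered share had to lie within the replicate spread, and counts within 1.5 times. The log2 ratios had to keep their direction only, so some counted as unchanged lay outside the spread. The inside to outside ratio of Nfib was 0.40 with a reach of 100 kb, against 0.73 ± 0.15. That of Nfia was 0.78 with a −log10 q of at least 5, against 1.05 ± 0.15. With 4 libraries no test could pass 0.05, so its p-values say nothing about stability. The log2 density ratio of Nfic over Nfix turned from 0.09 to -0.034 with a reach of 100 kb. With a 0.5 kb window 0 members were open at an end in all 4 libraries. With a −log10 q of at least 5, mean peaks per library fell to 54 at Nfia, 50.5 at Nfib, 78.8 at Nfic and 81.5 at Nfix, from 100, 96.8, 125 and 133, shared regions numbered 27 at Nfia and 26 at Nfib, covered share was 5.90% at Nfia and 9.21% at Nfib, and the outside percentile of Nfix was 92.4. With lists of equal length covered share was 7.002% at Nfia and 10.7% at Nfib. Without peaks wider than 10 kb, Nfic's covered share was 17.0%, by construction, and Nfix's 62.4%. With a reach of 100 kb, peaks numbered 67 at Nfic and 87.3 at Nfix, shared regions 17 and 26, and the outside percentile of Nfix was 87.8. Without other gene ends the outside percentile was 91.3 at Nfic and 86.1 at Nfix. Regions in at least 3 libraries numbered 68 at Nfia, 57 at Nfic and 75 at Nfix. Leaving out each library gave 46 to 51 shared regions at Nfia, 44 to 50 at Nfib, 32 to 57 at Nfic and 47 to 72 at Nfix. At Nfic and Nfix the number was highest without replicate 1. The end percentile of Nfic rose to 95.4 with 2.5 kb windows and 97.3 with any overlap. For these the cause was not tested, apart from the width rule. No value could be had for the inside to outside ratio where Nfic held no inside peak, or for end percentiles where under 2 libraries had an end peak. Genes were compared within libraries; no paired analysis between groups was possible because the study has 1 group.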
